A study of Marmota monax with 203 samples.

Results

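The levels of 9 genes of liver-enriched transcription factors, HNF4A, FOXA2, ONECUT1, CEBPA, CEBPB, NR1I2, NR1I3, RXRA and NR5A2, were followed in liver biopsies of woodchucks that were chronic carriers of woodchuck hepatitis virus (WHV). They were chosen by their symbols in the deposited tables, which hold 17587 genes in all, and all 9 were detected in each of the 203 sequencing runs. With interferon (wIFN-α) RXRA and NR1I3 were lower than placebo at 4 of the 5 treatment weeks, and CEBPA at 3 of them. These differences were 1.57-fold to 2.53-fold. Without 1 week 3 library that had no interferon response, RXRA passed at week 3 as well. The difference of CEBPA at week 0 was under 1.5-fold once 1 biopsy rich in muscle reads was left out. None of the other 6 genes moved by more than 1.5-fold in either direction. In placebo animals CEBPA rose 1.88-fold from weeks 0 and 3 to weeks 7, 11 and 15.

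All animals were captive-born woodchucks of both sexes that had been infected with WHV as newborns and were chronic carriers, so that every group carries the infection. They were injected subcutaneously 3 times a week with placebo or with woodchuck wIFN-α, at 20 µg per dose at weeks 0 and 3 and at 100 µg at weeks 7, 11 and 15, and week -3 preceded treatment while weeks 19 and 23 followed it. The labels number these weeks -3, 1, 4, 8, 12, 16, 20 and 24. There were 12 placebo animals at each week up to week 7, then 10, 9, 5 and 9, and 11 wIFN-α animals at weeks -3 and 0, 9 at weeks 3 and 7, 8 at weeks 11 and 15 and 6 at weeks 19 and 23, without animal M1004. Biopsies of the dosing weeks were taken 6 h after an injection and the others without a preceding dose. The dose step is thus also a step in time, and dose and time cannot be told apart within the wIFN-α group.

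Hepatocyte identity is held by a network of transcription factors that bind together at liver genes and at each other's promoters. HNF4A, a nuclear receptor, FOXA2, a forkhead factor that opens chromatin, and ONECUT1, also called HNF6, act at its core. CEBPA drives metabolic genes of the resting hepatocyte, and the related CEBPB is raised in the acute phase response and in regeneration. NR1I2 (PXR) and NR1I3 (CAR) are receptors for drugs and other foreign compounds that switch on cytochrome P450 and transporter genes, RXRA is the partner with which they and many other nuclear receptors pair on DNA, and NR5A2 (LRH-1) acts on bile acid and cholesterol genes.

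The biopsies compared held 12072840 to 84805845 reads on genes (median 28754894). Levels are given as counts per 1000000 reads (CPM) after scaling by trimmed mean of M values (TMM). At that depth the least abundant member, ONECUT1, had a median of 303 reads per biopsy and HNF4A, the most abundant, 17444. The week -3 biopsies of placebo animal F1016 and wIFN-α animal F1018 went against the liver label. There 13.9% and 14.2% of reads lay on 20 skeletal muscle genes, HNF4A was at 1.21 and 0.898 CPM against 242 to 952 CPM in the 144 biopsies below 5% muscle, and the hepatocyte marker CPS1 was at 2.75 and 1.64 CPM against 321 to 3810 CPM. NR1I2 was at 0.606 and 0.390 CPM in them against 72.8 to 260 CPM, whereas CEBPB was at 793 and 553 CPM against 110 to 299 CPM, and RXRA, at 288 and 236 CPM, lay within the range of the others. Another 3 biopsies, of placebo animals F1021 and M1011 at week 3 and wIFN-α animal F1023 at week 0, held 5.22% to 11.6% muscle reads, with HNF4A at 268, 399 and 342 CPM. F1021 had the lowest NR5A2 of its group, at 6.78 CPM against 22.2 CPM in the next placebo animal. Weeks -3, 0 and 3 and the placebo time course were also computed without these 5 biopsies, and values are given where a call changed or a value moved.

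The library labelled wIFN-α of F1013 at week 3 had no interferon response. Its mean log2(CPM + 1) over 12 interferon-stimulated genes was 4.49, within the placebo range of 4.28 to 5.10, while the other 8 wIFN-α biopsies of that week lay between 9.07 and 9.79. At the other treatment weeks the 2 groups did not meet, with placebo at 5.61 or lower and wIFN-α at 8.79 or higher. RXRA, NR1I3 and CEBPA at week 3 are given with and without F1013. The other week 3 values and counts include F1013 unless stated.

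For the receptors, counts of a further gene ran closely in step with the member, which limits what a count of that symbol stands for. RXRG, a paralog of RXRA, was at 0.393 to 0.622 times the RXRA count in the 144 biopsies. VDR, the vitamin D receptor and a relative of NR1I2, was at 0.393 to 0.588 times the NR1I2 count, and TOMM40L, a mitochondrial import gene, at 0.438 to 1.83 times the NR1I3 count. After subtraction of group means the Pearson correlations of these pairs over the 144 biopsies were 0.906, 0.967 and 0.909. In the 2 muscle biopsies of week -3 VDR was at 4.02 and 5.39 CPM where NR1I2 was below 1 CPM. RXRG was at 134 and 106 CPM beside RXRA at 288 and 236 CPM. TOMM40L was at 20.7 and 23.9 CPM beside NR1I3 at 13.2 and 11.4 CPM. NR1I3 in these biopsies thus lay within the range of the 144 others, 7.76 to 119 CPM. The files give genes by human symbols on an assembled woodchuck transcriptome, and whether reads of one gene of a pair were counted for the other was not tested, so that levels of RXRA, NR1I2 and NR1I3 are uncertain to that extent.

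**Figure D1:**
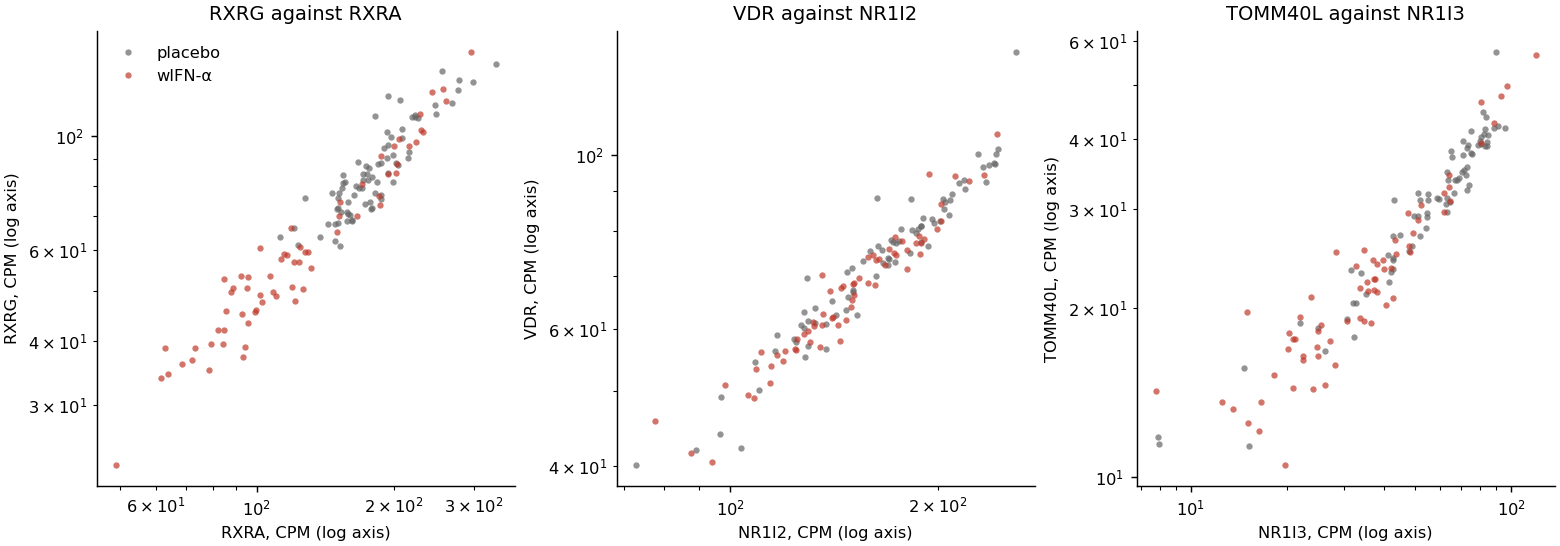
Levels of RXRG, VDR and TOMM40L (vertical axes, CPM, log scale) against RXRA, NR1I2 and NR1I3 (horizontal axes, CPM, log scale), 1 point for each of 144 biopsies, placebo in grey and wIFN-α in red. Points lie along a line in each panel, with median ratios of 0.470, 0.441 and 0.561.

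Compared per kilobase of the gene model, the 9 genes covered a wide range in placebo liver. Medians over 78 biopsies were 158 CPM per kb for HNF4A, 84.0 for CEBPB, 47.6 for CEBPA, 31.5 for NR1I2, 16.4 for NR1I3, 16.3 for RXRA, 14.8 for FOXA2, 4.79 for ONECUT1 and 4.74 for NR5A2. As means over the 12 animals, NR1I3 (15.5 ± 3.17 CPM per kb, SD) lay between RXRA (17.2 ± 1.62) and FOXA2 (14.5 ± 2.16) and within its own SD of both, whereas RXRA and FOXA2 differed by more than either SD. ONECUT1 (5.07 ± 0.891) and NR5A2 (4.8 ± 0.689) did not differ beyond this spread. Within a week, NR1I3 varied most between placebo animals, with an SD of 0.582 on the log2(CPM + 1) scale, and CEBPB least, with 0.179. RXRA (0.192) was nearly as even as CEBPB, so that the same fold change stood further outside the spread for RXRA than for NR1I3 or CEBPA (0.400).

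**Figure D2:**
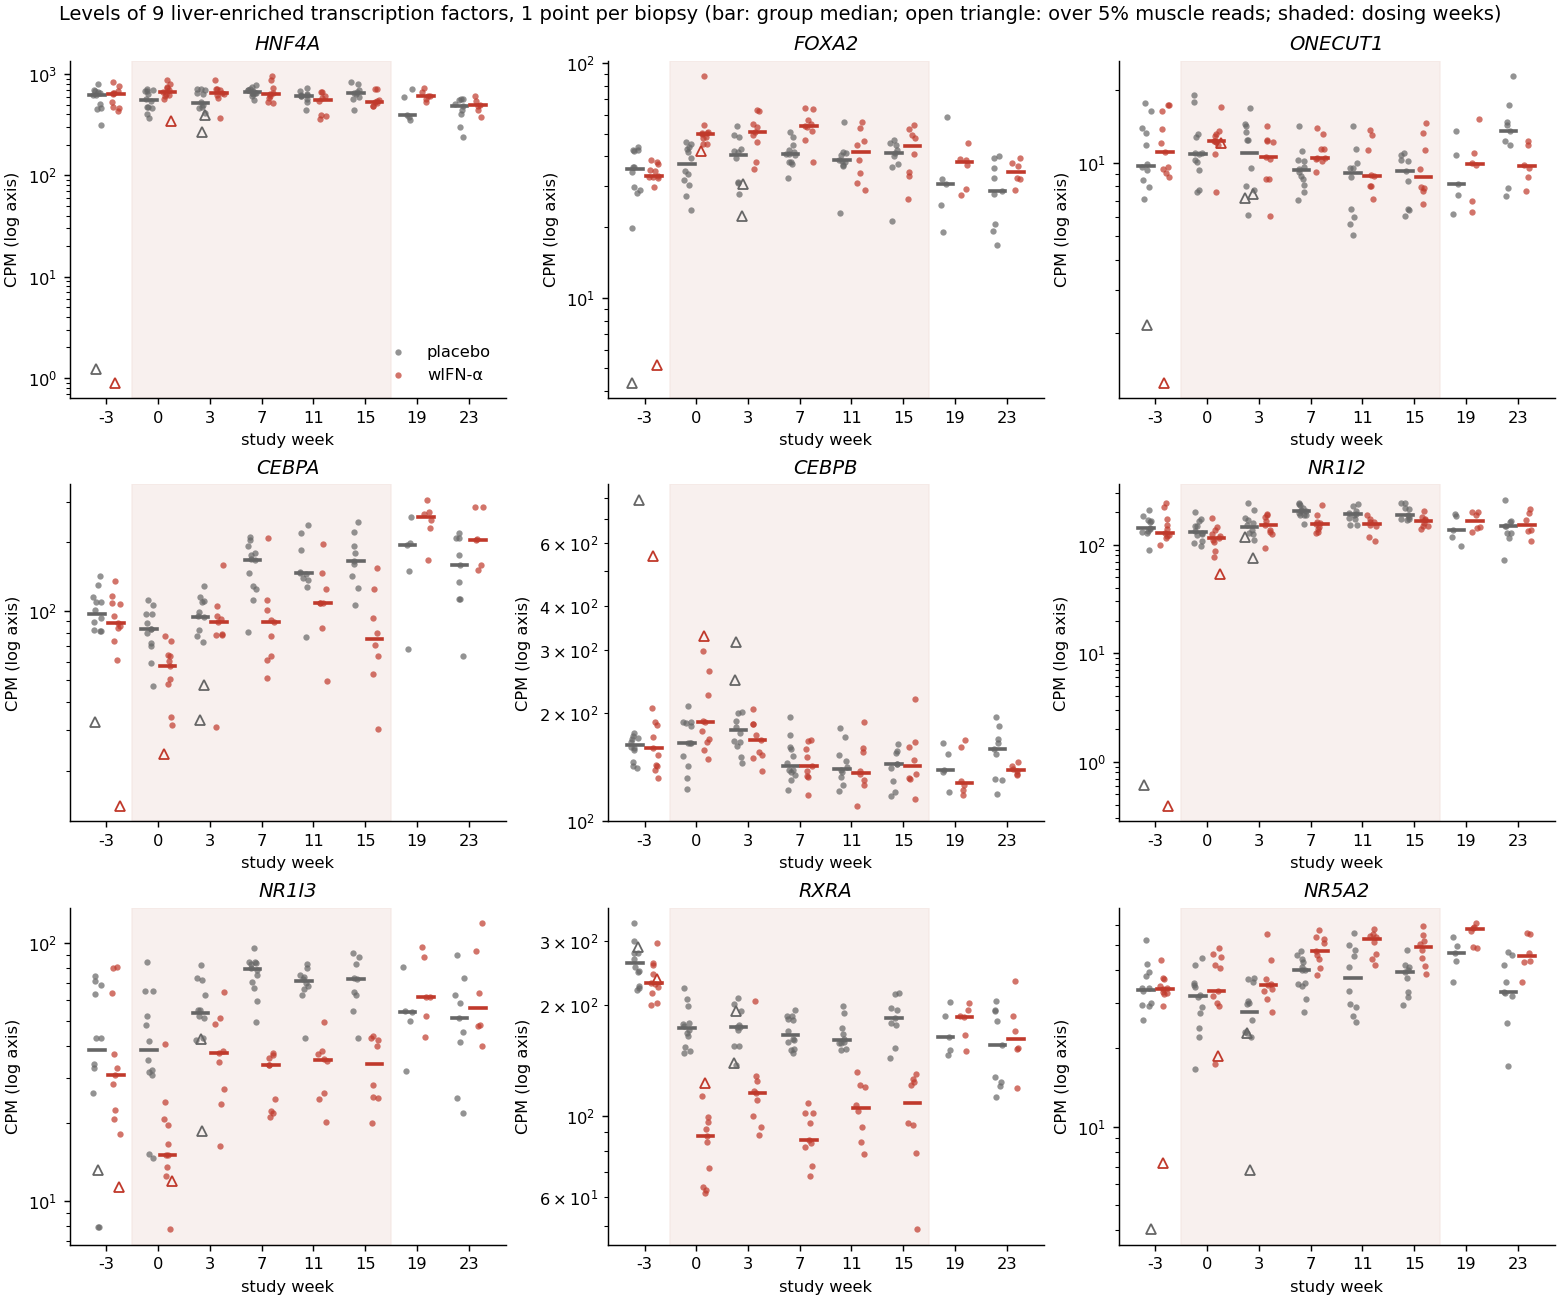
Levels of the 9 genes (vertical axis, CPM, log scale) in each biopsy by study week, placebo in grey and wIFN-α in red, with bars for group medians, shading for the dosing weeks and open triangles for biopsies with over 5% muscle reads. In the RXRA panel the wIFN-α points of weeks 0, 7, 11 and 15 lie wholly below the placebo points.

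RXRA, the shared partner of the nuclear receptors, separated the groups most cleanly. At week 0 it was at 61.5 to 123 CPM (median 87.9) in the 11 wIFN-α biopsies and at 148.5 to 223 CPM (median 173) in the 12 placebo biopsies, and every treated animal lay below every placebo animal. This was a 2.04-fold reduction (log2 fold change -1.03, SE 0.12, adjusted p = 1.59e-07). Such complete separation downwards was found for 0.660% of the 14700 genes tested at week 0, 2.76% at week 7, 2.25% at week 11 and 3.55% at week 15, and RXRA showed it at all 4 of these weeks.

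With 100 µg the range was 68.5 to 108 CPM (median 85.7) at week 7 against 148.5 to 194 CPM (median 166) in placebo, a 1.89-fold reduction (adjusted p = 4.10e-09). At week 11 it was 78.4 to 132 CPM (median 105) against 151 to 200 CPM (median 160), or 1.57-fold lower (adjusted p = 2.84e-05). At week 15 it was 48.9 to 130 CPM (median 108) against 143 to 216 CPM (median 185), or 1.76-fold lower (adjusted p = 0.000378), with the lowest value in F1020. No change of this reduction with dose was detectable for RXRA. The effect at weeks 7, 11 and 15 minus that at weeks 0 and 3 was -0.02 on the log2 scale (95% interval -0.22 to 0.18). That contrast includes the week 3 library of F1013.

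Week 3 stood apart from the other treatment weeks. RXRA was at 88.8 to 205 CPM (median 115) in the 9 wIFN-α biopsies against 138 to 209 CPM (median 175) in placebo, and the fold change of 1.44 (log2 -0.53, SE 0.13, adjusted p = 0.00565) was under the 1.5-fold limit. The value of 205 CPM belonged to F1013, and the next highest was 128 CPM, below every placebo biopsy. Without F1013 the log2 fold change was -0.67 (adjusted p = 3.15e-05) and passed.

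NR1I3, the constitutive androstane receptor, was lower than placebo by the largest factors. Its median before treatment, at week -3, was 30.7 CPM in the wIFN-α group and 38.4 CPM in placebo. At week 0 it was at 7.76 to 40.6 CPM (median 15.1) with wIFN-α and at 14.7 to 84.2 CPM (median 38.4) with placebo, a 2.40-fold reduction (log2 -1.26, SE 0.28, adjusted p = 0.00103), and 4 of 11 treated animals lay below every placebo animal. At week 7 the groups did not overlap, with 21.1 to 37.6 CPM (median 33.7) against 49.2 to 95.6 CPM (median 79.5), a 2.53-fold reduction (adjusted p = 1.44e-08). The spread between treated animals was narrow at that week (SD 6.98 CPM).

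At weeks 11 and 15 NR1I3 remained lower, and 7 of 8 treated animals lay below all placebo animals each time. Its range was 20.3 to 49.5 CPM (median 35.1) against 42.8 to 83.2 CPM (median 71.2) at week 11 (2.06-fold, adjusted p = 1.90e-05). It was 20.1 to 43.6 CPM (median 34.1) against 42.9 to 91.3 CPM (median 72.8) at week 15 (2.04-fold, adjusted p = 0.000134). The wIFN-α medians of weeks 7, 11 and 15 lay near the 30.7 CPM of week -3, whereas the placebo medians lay above their 38.4 CPM. At week 3 the values were 16.3 to 64.4 CPM (median 37.4) against 18.6 to 81.9 CPM (median 53.6), and the log2 fold change of -0.51 (SE 0.23, adjusted p = 0.130) did not pass the test. Here too F1013 was the highest of the treated animals. Without it the log2 fold change was -0.64 (adjusted p = 0.0508), and without the muscle-rich placebo biopsies of F1021, the lowest placebo value, and M1011 it was -0.63 (adjusted p = 0.0329), which passed.

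NR1I2, the pregnane X receptor, moved little. It was lower at week 7, at 128 to 234 CPM (median 154) against 156 to 241 CPM (median 204), with a log2 fold change of -0.35 (SE 0.10, adjusted p = 0.00553), and at week 11, at 108 to 188 CPM (median 156) against 151 to 238 CPM (median 190), with -0.31 (adjusted p = 0.0297). Both were under 1.5-fold. At week 15 the log2 fold change was -0.23 (adjusted p = 0.0544), and 4 of 8 treated animals lay below every placebo animal.

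CEBPA, the factor of the resting hepatocyte, was lower at weeks 0, 7 and 15. At week 0 it was at 23.6 to 77.4 CPM (median 57.3) against 47.0 to 111 CPM (median 83.2), and all 11 treated animals lay below the placebo median. The log2 fold change was -0.65 (SE 0.18, adjusted p = 0.00550), and the lowest value was that of the muscle-rich biopsy of F1023. Without it the log2 fold change of -0.57 (adjusted p = 0.00624) was just under 1.5-fold, so the call at week 0 rests on this biopsy.

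At week 7 CEBPA ranged from 51.0 to 209 CPM (median 89.7) against 80.4 to 210 CPM (median 167), a 1.64-fold reduction (adjusted p = 0.00862). At week 15 it ranged from 30.3 to 153 CPM (median 75.6) against 107 to 245 CPM (median 164), a 1.99-fold reduction (log2 -0.99, SE 0.25, adjusted p = 0.00448). At that week 6 of 8 treated animals lay below every placebo animal. The medians of week -3 were 88.8 CPM with wIFN-α and 97.0 CPM with placebo. At weeks 7 and 15 the placebo median was thus above its own week -3 level, and the wIFN-α median of week 7 was near its own. At week 11 the ranges of 49.2 to 196 and 76.9 to 238 CPM overlapped widely (log2 -0.41, SE 0.22, adjusted p = 0.150). At week 3 the medians of 89.1 and 94.1 CPM were close, with a log2 fold change of 0.02 (SE 0.23) that was -0.02 without F1013 and -0.13 (SE 0.19) without the muscle-rich placebo biopsies.

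CEBPB, which works beside CEBPA in the acute phase response, showed no called difference at any treatment week. Its largest log2 fold change was 0.33 (SE 0.13, adjusted p = 0.0593) at week 0, when wIFN-α biopsies held 148.5 to 329 CPM (median 189) and placebo biopsies 123 to 210 CPM (median 165). The highest of these was the muscle-rich biopsy of F1023, without which the log2 fold change was 0.245 (adjusted p = 0.121). At weeks 7, 11 and 15 the log2 fold changes were -0.02, 0.01 and 0.14, with standard errors of 0.08 to 0.11.

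Of the core factors, HNF4A and ONECUT1 stayed close to placebo. HNF4A had medians of 661 and 557 CPM at week 0, 642 and 671 CPM at week 7 and 538 and 647 CPM at week 15 (wIFN-α and placebo), and its log2 fold changes lay between -0.19 and 0.27 with standard errors of 0.10 to 0.16. None passed an adjusted p of 0.05. Without F1023 and the other muscle-rich biopsies HNF4A at week 0 was higher with wIFN-α by 0.30 (SE 0.12, adjusted p = 0.0469), with all 10 remaining animals above the placebo median. ONECUT1 was within 0.25 of placebo on the log2 scale at every treatment week (adjusted p of 0.0552 or more), at 5.04 to 18.9 CPM over these weeks.

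FOXA2 went the other way from RXRA. At week 0 it was at 42.1 to 87.7 CPM (median 49.7) against 23.6 to 46.2 CPM (median 37.1), and 8 of 11 treated animals were higher than all of the placebo animals. The log2 fold change of 0.50 (SE 0.12, adjusted p = 0.00267) was under 1.5-fold. At week 7 it was at 38.0 to 64.3 CPM (median 54.1) against 32.4 to 50.7 CPM (median 41.1), with 7 of 9 above all placebo animals and a log2 fold change of 0.39 (SE 0.08, adjusted p = 0.000605). At week 3 the log2 fold change of 0.395 (SE 0.145, adjusted p = 0.0597) did not pass, and it was 0.311 (adjusted p = 0.102) without the muscle-rich placebo biopsies. At weeks 11 and 15 the log2 fold changes were 0.11 and 0.14, with adjusted p of 0.586 and 0.507.

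NR5A2, the receptor of bile acid genes, was also higher by less than 1.5-fold. Its log2 fold changes of 0.149 (SE 0.174, adjusted p = 0.547) at week 0 and 0.45 (SE 0.20, adjusted p = 0.117) at week 3 did not pass. Without the muscle-rich placebo biopsies the week 3 value was 0.329 (adjusted p = 0.0746). At week 7 it was at 38.2 to 57.2 CPM (median 47.2) against 27.6 to 47.3 CPM (median 40.1), a log2 fold change of 0.31 (adjusted p = 0.00783). At week 11 it was at 41.8 to 57.6 CPM (median 52.7) against 25.3 to 55.8 CPM (median 37.3), or 0.42 (adjusted p = 0.0324), and at week 15 at 38.6 to 59.0 CPM (median 49.2) against 29.5 to 47.9 CPM (median 39.5), or 0.40 (SE 0.10, adjusted p = 0.00352). At least 7 of the 8 treated animals were above the placebo median at both of these weeks. After treatment the estimates for NR5A2 were also positive, at 0.247 (SE 0.099, adjusted p = 0.364) at week 19 and 0.415 (SE 0.178, adjusted p = 0.290) at week 23. Neither passed, so a difference after treatment was not shown, though 6 of 6 animals were above the placebo median each time.

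**Figure D3:**
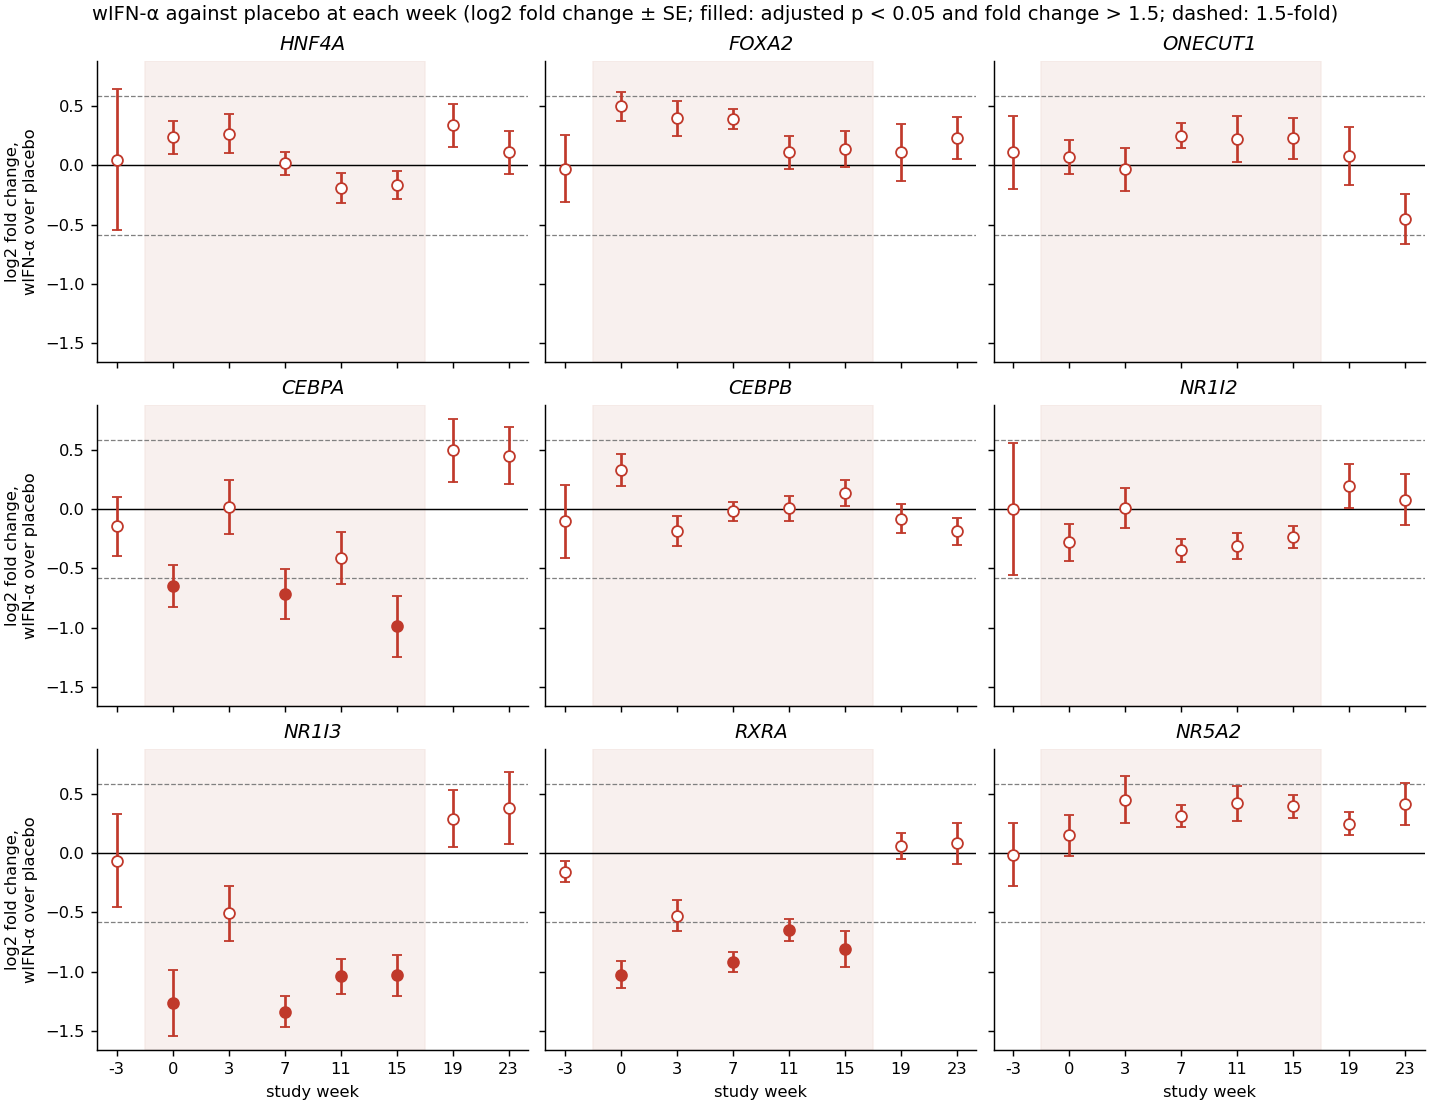
Log2 fold change of wIFN-α over placebo (vertical axis, points with SE) for each gene at the 8 study weeks (horizontal axis), filled where adjusted p was below 0.05 and the fold change above 1.5, with dashed lines at 1.5-fold and shading for the dosing weeks. Filled points occur for RXRA and NR1I3 at weeks 0, 7, 11 and 15 and for CEBPA at weeks 0, 7 and 15, and none lies above the line at 0.

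Of the 45 combinations of gene and treatment week, 11 passed an adjusted p of 0.05 with a fold change above 1.5, and all 11 were lower with wIFN-α. At week 0, 3 of 9 genes were lower, where 8.15% of all genes were lower and 10.3% higher. At week 3 there were 0 of 9, with 3.54% lower and 7.24% higher. Without F1013 RXRA passed as lower at week 3, where 670 of 15062 genes were lower and 1237 higher. At week 7 there were 3 of 9 lower, with 10.1% lower and 11.4% higher, at week 11 there were 2 of 9, with 7.98% lower and 12.6% higher, and at week 15 there were 3 of 9, with 8.83% lower and 13.4% higher. The median log2 fold change over the 9 genes was 0.07, 0.01, -0.02, -0.19 and -0.17 in order of week, against -0.01 to -0.04 over all genes. With the adjusted p alone 19 combinations passed, of which 14 were lower and 5 higher, these being FOXA2 and NR5A2. The share of all genes passing that limit is not given, so these 19 cannot be set against the shares above. In the same edgeR tests the unadjusted p was under 0.05 for 5019 of 15006 genes at week 3 and up to 7894 of 14868 at week 7. Fewer cells of a type and less RNA per cell cannot be told apart in whole biopsies.

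Before treatment no difference between the groups was detectable. At week -3 edgeR called 0 of the 9 genes and 0% of all genes (130 of 14963 genes had an unadjusted p under 0.05, none of them a member, and DESeq2 and limma-voom called 0). The log2 fold changes lay between -0.16 for RXRA (SE 0.09) and 0.11 for ONECUT1, and the standard error of HNF4A, 0.59 with all biopsies, was 0.15 without the 2 muscle biopsies.

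After treatment the called reductions were no longer found. At week 19 the 5 placebo biopsies held RXRA at 147, 151, 163, 187 and 204 CPM and the 6 wIFN-α biopsies 150 to 202 CPM (median 186), and at week 23 the medians were 156 and 161 CPM. NR1I3 at week 19 was at 32.0, 49.8, 54.1, 54.6 and 80.8 CPM with placebo and at 43.3 to 96.8 CPM (median 61.8) after wIFN-α. CEBPA was at 68.1, 149.1, 195, 198 and 257 CPM with placebo and at 167 to 306 CPM (median 257) after wIFN-α, with 3 of 6 animals above every placebo animal. The groups thus overlapped for all 3 genes. At weeks 19 and 23 edgeR called 0 of 9 members and 0% of all genes, with 1859 of 14715 and 2416 of 14956 genes at an unadjusted p under 0.05, and limma-voom called 0 genes. DESeq2 called 89 and 53 genes, none of them a member. The largest of the members' log2 fold changes were 0.50 (SE 0.27, adjusted p = 0.450) for CEBPA at week 19 and -0.46 (SE 0.21, adjusted p = 0.308) for ONECUT1 at week 23.

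Animals measured both at week 15 and at week 19 were also followed one by one. In the 6 wIFN-α animals CEBPA was higher at week 19 in 6 of 6, by 1.48 ± 0.495 on the log2(CPM + 1) scale (SD), NR1I3 in 6 of 6, by 0.850 ± 0.567, and RXRA in 6 of 6, by 0.697 ± 0.348. In the 5 placebo animals the same steps were 0.0195 ± 0.792, -0.399 ± 0.436 and -0.0484 ± 0.345, with 2, 1 and 1 of 5 animals higher. HNF4A was higher at week 19 in 0 of 5 placebo animals (-0.491 ± 0.238) and in 4 of 6 wIFN-α animals (0.0792 ± 0.155). These steps were not tested. For CEBPA the group medians at week 19 lay above those before treatment. They were 257 CPM against 88.8 CPM at week -3 with wIFN-α, and 195 CPM against 97.0 CPM with placebo.

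No member's treatment effect differed between doses at an adjusted p of 0.05, where 5.50% of 16232 genes did. The estimates for CEBPA and NR1I3 were -0.40 (95% interval -0.82 to 0.01) and -0.26 (95% interval -0.74 to 0.22). These intervals hold 0 as well as larger reductions at the higher dose. HNF4A was at -0.375 (95% interval -0.889 to 0.139). Without the muscle-rich biopsies HNF4A was at -0.354 (SE 0.121, adjusted p = 0.0514), just short of a call, where 7.76% of 16179 genes were called. Between the sexes before treatment 0 of 9 members and 0.0668% of genes were called. The largest log2 difference, of 0.69 (SE 0.27, adjusted p = 0.192), was higher CEBPB in females, the sex of the 2 muscle biopsies with the highest CEBPB. Without these biopsies CEBPB differed by 0.107 (SE 0.08, adjusted p = 0.509), and the largest difference was NR1I3, at 0.494 (SE 0.36, adjusted p = 0.5).

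The placebo animals alone showed how the factors moved without drug. An F test over the 8 weeks found 5 of 9 members variable, CEBPA (adjusted p = 2.00e-07), CEBPB (0.00536), NR1I3 (0.00673), RXRA (8.26e-11) and NR5A2 (0.0444), where 68.0% of all genes were variable. Without the muscle-rich biopsies it was 9 of 9, among them HNF4A (adjusted p = 0.0045) and NR1I2 (0.000146), where 72.3% of all genes were variable. The share among members was close to that of all genes with all biopsies, and the time course is given as a description of each gene.

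RXRA varied through its week -3 level. Placebo biopsies held 219 to 335 CPM (median 261) at week -3, and the medians of the 7 later weeks lay between 156 and 185 CPM. From week -3 to week 0 RXRA was lower in 11 of 11 placebo animals, with a mean change of -0.542 ± 0.271 on the log2(CPM + 1) scale (SD), and in 9 of 9 wIFN-α animals, with -1.5 ± 0.320. The other members did not share this step in placebo, where 3 to 8 of 11 animals were higher at week 0. Between the early weeks (0 and 3) and the later treatment weeks (7, 11 and 15) RXRA was level in placebo (log2 -0.01, SE 0.06).

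CEBPA had its step between week 3 and week 7. Its placebo medians were 97.0, 83.2 and 94.1 CPM at weeks -3, 0 and 3 and 167, 146, 164, 195 and 159 CPM from week 7 on. It rose by 0.91 on the log2 scale (SE 0.13, adjusted p = 2.75e-08) from weeks 0 and 3 to weeks 7, 11 and 15, and was higher in 11 of 12 animals. Without the muscle-rich biopsies the change was 0.836 (SE 0.114). It was the 1 member called in this contrast, in which 5.06% of 15984 genes rose and 8.14% fell.

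The other members moved by less than 1.5-fold in this contrast. NR1I3 was higher by 0.58 (SE 0.17, adjusted p = 0.00355), in 12 of 12 animals, and passed the fold limit as well with the animal as a block (0.71, adjusted p = 4.44e-05). NR1I2 was higher by 0.46 (adjusted p = 0.0151) and NR5A2 by 0.40 (adjusted p = 0.00666), each in 11 of 12 animals. CEBPB was lower by 0.30 (adjusted p = 0.0152), in 11 of 12 animals, and ONECUT1 by 0.33 (adjusted p = 0.0296), in 10 of 12. HNF4A and FOXA2 had log2 changes of 0.23 (SE 0.17) and 0.09 (SE 0.12). In the 9 wIFN-α animals the mean change of CEBPA over the same weeks was 0.310 ± 0.623, with 6 of 9 animals higher. That of NR1I3 was 0.229 ± 0.516, with 6 of 9 higher, and that of NR5A2 was 0.364 ± 0.245, with 9 of 9 higher.

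**Figure D4:**
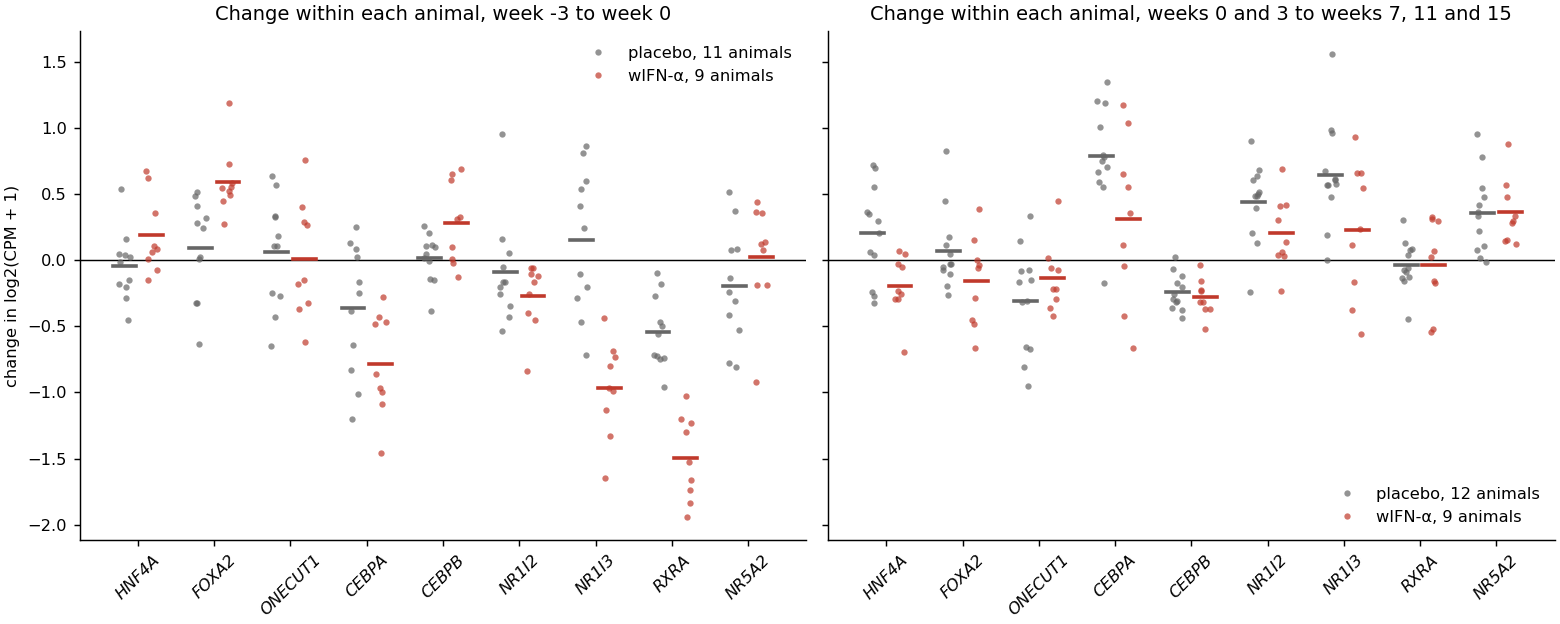
Change of each gene within each animal (vertical axis, difference in log2(CPM + 1)) from week -3 to week 0 (left) and from the mean of weeks 0 and 3 to the mean of weeks 7, 11 and 15 (right), placebo in grey and wIFN-α in red, 1 point per animal without the muscle-rich biopsies, with bars for means. On the left, RXRA is below 0 in all 11 placebo and all 9 wIFN-α animals, and on the right CEBPA is above 0 in 11 of 12 placebo animals.

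Other transcription factors that act in liver were read from a list of 30, of which 29 were found and tested. Of these 3, 0, 6, 3 and 3 were higher and 7, 2, 6, 6 and 6 lower at weeks 0, 3, 7, 11 and 15. The median of the list was between -0.07 and 0.03 at each week. HLF and TEF, PAR bZIP factors with a daily rhythm, were lower at 5 and 4 of the 5 weeks, with log2 fold changes of -1.41 (SE 0.22) and -1.08 (SE 0.18) at week 15. NFIL3, which binds the same sites as a repressor, was higher at 4 weeks, with 1.53 (SE 0.32, adjusted p = 0.00103) at week 15, and so was CEBPD, the acute phase relative of CEBPA, with 1.09 (SE 0.20).

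Nuclear receptors made up the rest of those called at 4 or more weeks. PPARA, the receptor of fatty acid oxidation genes and a partner of RXRA, was lower at 4 weeks, with -0.93 (SE 0.105, adjusted p = 1.39e-06) at week 15. NR2F6 was lower at all 5 weeks, with -0.84 (SE 0.19) at week 15, and RXRG at 4 weeks, with -0.80 (SE 0.15), beside -0.81 for RXRA, with the limit on counts of this pair given above. RXRB, the remaining RXR gene, was at 0.04 (SE 0.05) at week 15.

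**Figure D5:**
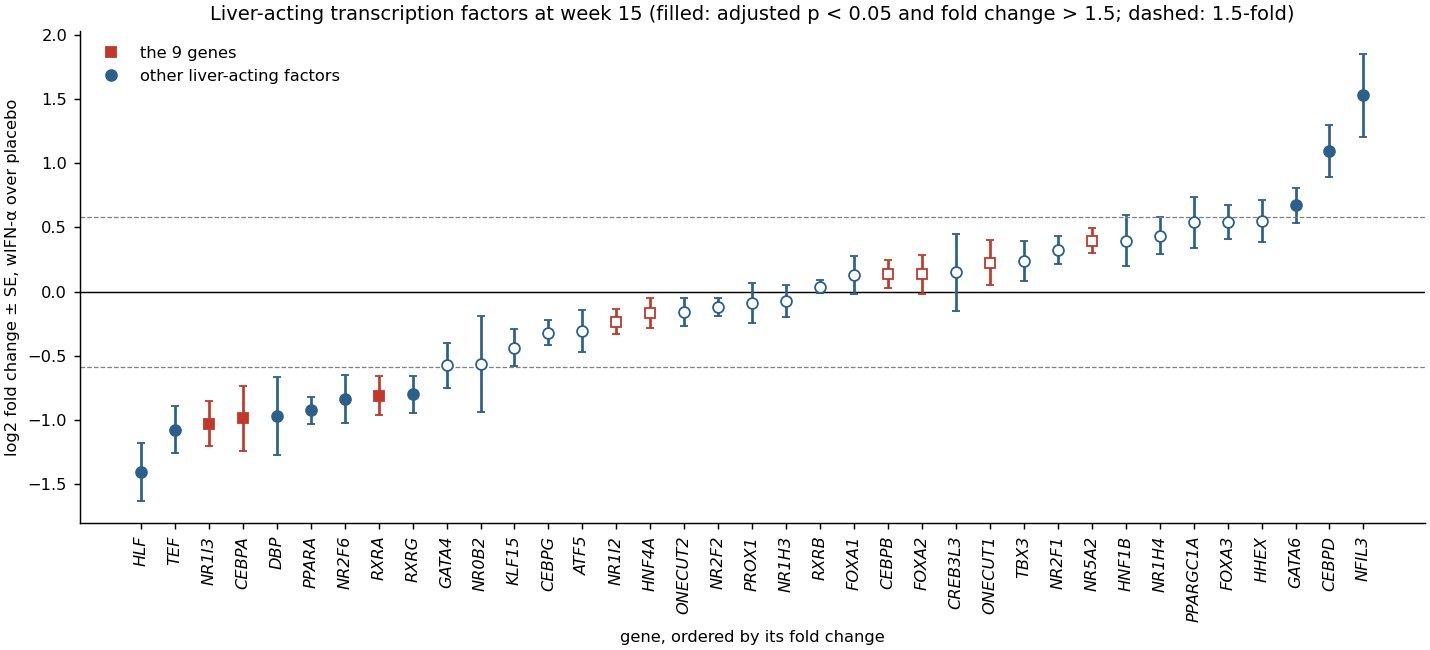
Log2 fold change with SE of wIFN-α over placebo at week 15 (vertical axis) for the 9 genes (red squares) and other liver-acting factors of the list (blue circles), ordered by value, filled where adjusted p was below 0.05 and the fold change above 1.5. HLF is lowest at -1.41 and NFIL3 highest at 1.53, and NR1I3, CEBPA and RXRA are the 3 filled squares.

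Genes known as targets of the factors were counted from lists of general knowledge. Of 14 targets of NR1I2 and NR1I3, 0, 0, 1, 4 and 5 were lower and 0, 2, 2, 3 and 2 higher over the 5 weeks, with a median of -0.34 at week 15 against -0.01 for all genes. CYP2A6, a P450 enzyme that oxidises nicotine, had the lowest value, -1.90 (SE 0.40, adjusted p = 0.00094) at week 15, while the export pump ABCC3 was higher at 4 weeks (0.64, SE 0.19, at week 15). The carboxylesterase CES2 was highest of the list at week 15, with 0.66 (SE 0.125). Lower and higher genes thus stood side by side among the targets of the same receptors.

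Of 9 tested targets of NR5A2, 2, 0, 5, 3 and 6 were lower and 0, 1, 1, 1 and 1 higher. CYP7A1, the rate-limiting enzyme of bile acid synthesis, was lower at 4 weeks, with -2.33 (SE 0.44, adjusted p = 0.000359) at week 15, and ABCB4, the phospholipid pump of the bile canaliculus, was higher at 4 weeks, with 0.68 (SE 0.11). NR5A2 itself was higher over the same weeks by less than 1.5-fold. Of 12 acute phase targets of CEBPB, 4, 2, 5, 0 and 4 were higher and 0, 1, 1, 0 and 0 lower. CRP and SOCS3 were higher at 4 weeks each, with 0.60 (SE 0.21) and 0.92 (SE 0.21) at week 15, LCN2 was lowest of that list (-0.17) and IL1RN highest (1.53, adjusted p = 0.0781).

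In placebo from weeks 0 and 3 to weeks 7, 11 and 15, 7231 of all 15984 genes had a positive log2 change. The same held for 14 of 14 targets of NR1I2 and NR1I3, of which 2 passed as higher, CYP2A6 among them (1.30, SE 0.26), and for 8 of 9 targets of NR5A2, of which 4 passed. Of the 12 acute phase targets of CEBPB 11 had a negative change, 5 passed as lower and 1 as higher. In the same contrast 3 of 12 hepatocyte markers were higher and 9 of 20 skeletal muscle markers lower, and their part in these changes was not tested.

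Markers of cell types moved beside these results as follows. Of 12 hepatocyte markers 0, 0, 1, 3 and 3 were lower and none higher over the treatment weeks, and their summed level at week 15 was 13420 to 20290 CPM with wIFN-α and 13890 to 27490 CPM with placebo. Of 10 T and NK cell markers 2, 3, 3, 8 and 10 were higher, with sums of 106 to 220 CPM and 43.1 to 69.3 CPM at week 15. Of 8 stellate cell markers 2, 4, 5, 1 and 4 were lower and none higher. Of 10 cholangiocyte markers 3, 3, 2, 1 and 1 were higher and none lower. Myeloid markers (10) and B and plasma cell markers (6) were higher mainly at week 15, with 4 and 3 of them. Of 8 endothelial markers 1 was higher at each week and 1 or 2 lower, and skeletal muscle markers had no call. No marker of any list was at 0 in all biopsies of a group at weeks 0, 7 or 15. Skin markers, 3 to 6 of those tested, were lower with wIFN-α at weeks 0, 7, 11 and 15, when single placebo biopsies reached sums of 5803 CPM at week 0 and 4855 CPM at week 7, and higher at week 3, when wIFN-α animal M1012 reached 8000 CPM. WHV transcripts made up a median of 0.566% of reads with wIFN-α and 2.23% with placebo at week 15. Their part in the results was not tested.

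Each run is labelled with a barcode and a lane number, and 68 of the 75 combinations occur in several biopsies, so that 1 number stands for several lanes. All 38 biopsies with several runs had them under different numbers. Within the 7 lane numbers, taken from the deepest run of each biopsy and with weeks 0 to 15 pooled, the difference of wIFN-α minus placebo in mean log2(CPM + 1) was -0.921 to -0.560 for RXRA, -1.34 to -0.803 for NR1I3 and -1.02 to -0.0790 for CEBPA, negative under every number. FOXA2 was positive under every number, at 0.222 to 0.415.

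After subtraction of group means, the 9 genes varied together in part. Of their 36 pairs 31 had a positive Pearson correlation over 144 biopsies, with a median of 0.250. The highest were HNF4A with NR1I2 (0.699), NR1I2 with NR1I3 (0.693) and HNF4A with NR1I3 (0.572), and CEBPB had the negative ones, down to -0.447 with NR5A2. Biopsies of 1 animal enter more than once, and points share library depth and tissue makeup, so these values are descriptions.

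Among the 13847 genes whose mean level reached 1 CPM, those most like each member in these correlations were taken, the other members aside. HNF4A was followed by MAT2A (0.722) and MAT1A (0.686), which make S-adenosylmethionine, and VDR (0.671). CEBPA was followed by DGAT2 (0.741), of triglyceride synthesis, and PDP2 (0.739). NR1I2 was followed, after VDR, by MAT2A (0.794) and MAT1A (0.793), and NR1I3, after TOMM40L, by ACSM2B (0.736) and ACSM2A (0.730). RXRA was followed, after RXRG, by NACC2 (0.658) and NFIC (0.651), and FOXA2 by BCAR1 (0.731), ST20-MTHFS (0.697) and MTHFS (0.690).

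CEBPB was followed by FEM1A (0.694) and by FABP3 (0.635) and SMYD1 (0.627), both of them genes expressed in muscle. ONECUT1 was followed by PRPF4B (0.673), LOC100131257 (0.668) and THOC2 (0.668), and NR5A2 by MGAM (0.761), WAPAL (0.756) and NCOA2 (0.736).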

How the data were processed

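The authors sequenced poly(A) RNA of the biopsies, mapped the paired reads to a woodchuck transcriptome they had assembled and counted them per gene, and the tools named in the submitters' processing notes are CASAVA, FastQC, Bowtie2, SAMtools and DESeq. The deposited expected counts are not normalized, and 118 of 3368023 nonzero entries are fractions. The deposited RPKM values were used only to derive each gene's length in kb, as their ratio to the counts was constant per gene within 2%. Genes not listed in a run were taken as 0. Counts of the 203 runs were added up over each of 164 biopsies, then rounded. Of these, 149 were compared, 7 were of M1004, which the study set aside, and 8 were of other weeks. The virus entry stayed out of library sizes.

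Counts were fitted with edgeR 4.0.16 in R 4.3.3 (TMM, filterByExpr, quasi-likelihood test, Benjamini-Hochberg over all genes tested). There was 1 fit for each week, 1 for the placebo time course and 1 of all 149 biopsies for the dose contrast. The fits of several weeks took biopsies of 1 animal as independent, with the animal as a block only in the alternatives. Calls required an adjusted p below 0.05 and a fold change above 1.5, and in the F test over weeks and the dose contrast by the adjusted p alone. The members and lists were chosen with earlier results of these data known. Named list genes were those called in the same direction at 4 or more of 5 treatment weeks and the highest and lowest of each list at week 15, and for likeness the 3 genes with the highest correlation of log2(CPM + 1). Some genes and 1 list of target genes are not reported here. RXRB and the muscle and F1013 biopsies were singled out after their values were seen. In data simulated on the week 15 groups, 71 of 100 genes changed by 1 on the log2 scale and 95 of 100 changed by 2 were recovered among 14943 genes, with 5 other calls.

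Animals carry the same number at every week, so biopsies pair by animal. Over 13847 genes, deviations from group means of the same animal at weeks 0, 7 and 15 had a median correlation of 0.391 (55 pairs, 44 above 0.1), against -0.034 between other animals (547 pairs). Weekly comparisons hold each animal once, so the block was fitted over all weeks with limma 3.58.1 (duplicateCorrelation), and in the placebo time course as a term of the edgeR fit. Alternatives also used DESeq2 1.42.0.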

Additional observations from a re-analysis of the deposited data

Results flagged for a closer look

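Among 90 groups of 4 to 10 biopsies tested for a value far from the others, 5 were marked, where chance marks about 1 in 20. CEBPA in wIFN-α animal F1018 at week 7 was at 209 CPM, within the placebo range, where the next of the 9 animals was at 112 CPM. RXRA in wIFN-α animal F1013 at week 3 was at 205 CPM, with the next at 128 CPM, in the library without an interferon response. FOXA2 in placebo animal M1008 at week 15 was at 21.3 CPM, with the next at 36.1 CPM. Its 2 runs, which were summed, differed by a median of 0.272 on the log2 scale over genes, against 0.0438 to 0.114 in the 37 other biopsies with several runs, so that the sum may mix unlike libraries. FOXA2 was at 26.4 and 24.0 reads per 1000000 in them, before TMM scaling. NR1I2 in placebo animal M1009 at week 23 was at 260 CPM, with the next at 166 CPM, and NR1I3 in placebo animal M1005 at week 11 was at 42.8 CPM, with the next at 62.9 CPM.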

How the results depend on the processing

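The count of called reductions on treatment was 11, and also 11 under RLE normalization, no filter, DESeq2, limma-voom, the deepest run of each biopsy, no muscle-rich biopsies, sex as a covariate and 1 fit of all weeks, and 11 in that fit with the animal as a replicate block. Without the muscle-rich biopsies these were not the same 11, as CEBPA at week 0 was no longer called (-0.57) and NR1I3 at week 3 was (-0.63). The count was 10 with M1004 included, when CEBPA at week 0 was -0.58, and between 10 and 12 with single animals left out (10 without F1023, 12 without F1013). With a fold change above 2 there were 5 called, all lower, and with the adjusted p alone 19, of which 5 were higher. The cause was the limit itself, and the shares of all genes under these limits are not given. Before and after treatment, between doses and by sex the count was 0 under all alternatives run. Members variable over time in placebo were 5, and 4 to 8 with single animals left out (8 without F1016), 9 without the muscle-rich biopsies and 6 with the block. In the placebo step from weeks 0 and 3 to weeks 7, 11 and 15, 1 member was called, but 2 with limma-voom and 2 with the animal as a replicate block, in both cases with NR1I3 added (0.70 and 0.71), 6 with the adjusted p alone, and 1 to 2 with single animals left out (2 without M1008, M1010 or F1024). For these placebo counts the shares of all genes are given above only for the main tests and for the F test without the muscle-rich biopsies. In the main edgeR test of the placebo step 8233 of 15984 genes had an unadjusted p under 0.05. The count of 6 is therefore no result about the members. The cause of the difference between edgeR and limma-voom was not tested. NR1I3 missed the 1.5-fold limit by little. Depth was not compared with the number of animals as a limit.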

Other observations

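Of the biopsies in no comparison, those of wIFN-α animal M1004 gave RXRA at 215 reads per 1000000 reads on genes at week -3, 81.6 at week 0, 130 at week 3, 94.8 at week 7, 122 at week 11, 136 at week 15 and 171 at week 19. NR1I3 in this animal was at 86.0, 23.3, 46.6, 25.7, 34.2, 35.4 and 52.8 at the same weeks, and CEBPA at 108, 80.5, 272, 102, 94.0, 109 and 355. These values have no TMM scaling. Biopsies labelled as taken at death gave CEBPB at 437 and NR1I3 at 9.03 on the same scale in wIFN-α animal F1023, CEBPB at 252 and NR1I3 at 38.5 in wIFN-α animal F1020, CEBPB at 188 and NR1I3 at 23.9 in wIFN-α animal M1007, and CEBPB at 143 and NR1I3 at 87.3 in placebo animal F1024.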
